A study of Mus musculus with 10 samples.

Results

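9 genes of the routes that carry proline, ornithine and histidine to glutamate, and of lysine degradation, were followed in mouse liver with and without Fbp1. They were chosen by function and by symbol, namely Prodh, Prodh2, Aldh4a1, Oat, Hal, Uroc1, Amdhd1, Ftcd and Aass, and make up 9 of the 53392 genes in the deposited table. All 9 matched a row and all 9 passed the filter on low counts. Both groups were C57BL/6 mice of 24 weeks whose livers had been frozen in liquid nitrogen: wild type (WT, replicates 1 to 5) and hepatic Fbp1 deficiency (Fbp1-deleted, replicates 6 to 10). The product of Fbp1, a fructose bisphosphatase, catalyses a late step in making glucose. The sources used here do not give the driver of the deletion, the sex or the feeding state.

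Liver cells oxidise these amino acids in mitochondria and cytosol. The carbon of those that reach glutamate can enter the tricarboxylic acid cycle and glucose synthesis. Proline dehydrogenase (Prodh) oxidises proline in the first step of its route, and hydroxyproline dehydrogenase (Prodh2) does the same for hydroxyproline. Ornithine aminotransferase (Oat) reaches the semialdehyde of the proline route from ornithine, and Aldh4a1 oxidises it to glutamate. Histidine reaches glutamate in successive steps by histidase (Hal), urocanase (Uroc1), imidazolonepropionase (Amdhd1) and formimidoyltransferase cyclodeaminase (Ftcd), which hands a one-carbon unit to folate. Aass, the bifunctional aminoadipic semialdehyde synthase, makes the first cuts of lysine degradation by way of saccharopine. In the liver lobule Hal is known as a periportal gene and Oat as a pericentral one.

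Prodh and Aldh4a1, successive steps of proline breakdown, were the genes of the 9 that fell, and their promoters are shown here beside that of Prodh2, whose enzyme does the matching first step for hydroxyproline and whose transcript did not pass the test. The promoters of Hal and Amdhd1 are shown because their levels went up and down in the same livers. Each window runs from 250 bases before to 50 bases after the RefSeq start site in GRCm38.p6, 5′ to 3′ on the strand of the gene. They lie at chr16:18089141-18089440 (Prodh, minus strand), chr4:139622644-139622943 (Aldh4a1, plus strand), chr7:30493408-30493707 (Prodh2, plus strand), chr10:93488518-93488817 (Hal, plus strand) and chr10:93539984-93540283 (Amdhd1, minus strand). Capitals mark letters that match a motif searched.
Prodh: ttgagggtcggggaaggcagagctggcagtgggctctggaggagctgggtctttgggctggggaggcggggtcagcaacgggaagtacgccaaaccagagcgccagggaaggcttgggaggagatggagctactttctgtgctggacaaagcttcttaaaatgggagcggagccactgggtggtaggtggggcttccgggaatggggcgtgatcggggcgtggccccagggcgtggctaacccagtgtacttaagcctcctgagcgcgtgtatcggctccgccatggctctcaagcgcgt
Aldh4a1: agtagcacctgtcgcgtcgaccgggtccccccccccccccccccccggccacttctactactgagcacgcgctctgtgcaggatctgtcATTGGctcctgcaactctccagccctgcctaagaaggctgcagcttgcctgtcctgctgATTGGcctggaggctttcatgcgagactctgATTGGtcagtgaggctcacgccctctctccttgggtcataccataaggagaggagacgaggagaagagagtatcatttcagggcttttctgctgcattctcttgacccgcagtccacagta
Prodh2: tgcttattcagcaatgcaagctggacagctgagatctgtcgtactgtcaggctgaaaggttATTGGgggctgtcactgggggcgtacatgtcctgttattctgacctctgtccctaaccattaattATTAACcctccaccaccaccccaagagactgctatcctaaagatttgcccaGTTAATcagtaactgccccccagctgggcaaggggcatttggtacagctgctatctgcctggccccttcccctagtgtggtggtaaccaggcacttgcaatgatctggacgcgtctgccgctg
Hal: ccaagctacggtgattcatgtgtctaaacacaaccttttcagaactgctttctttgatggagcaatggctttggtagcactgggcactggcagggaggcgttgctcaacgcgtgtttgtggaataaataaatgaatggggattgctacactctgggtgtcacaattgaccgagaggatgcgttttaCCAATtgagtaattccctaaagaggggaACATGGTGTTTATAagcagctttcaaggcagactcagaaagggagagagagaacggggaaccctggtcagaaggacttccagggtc
Amdhd1: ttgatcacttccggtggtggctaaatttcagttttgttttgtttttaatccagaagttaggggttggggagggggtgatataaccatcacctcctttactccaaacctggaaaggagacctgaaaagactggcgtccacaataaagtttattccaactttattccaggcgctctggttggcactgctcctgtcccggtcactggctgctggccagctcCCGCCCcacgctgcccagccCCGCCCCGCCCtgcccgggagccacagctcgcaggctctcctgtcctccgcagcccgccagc

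8 short motifs were searched on both strands, and in the 5 windows shown matches overlapped in Hal, where the TATA letters begin on the last base of the spaced half-sites, and in Amdhd1, where the last pair of GC boxes share a base. The Prodh window held none of the 8. It lies wholly inside the annotated span of Prodh, whose 5′ end is at 18090203 on the minus strand, and the letters around that end were not searched. The Aldh4a1 window held CCAAT (as ATTGG) 3 times, at -161, -102 and -71 from the start site, letters that 37.4% of all 32851 promoter windows of this length hold at least once. The Prodh2 window held the HNF1 half-site GTTAAT at -124 (as ATTAAC) and at -73, letters that 7.1% of all windows hold at least once. It also held 1 CCAAT (as ATTGG). The Hal window held the TATA letters (TATAAA, on the opposite strand, in 13.6% of all windows) at -28, the spaced half-sites ACANNNTGT of the glucocorticoid receptor (6.85%) at -36 and 1 CCAAT. The Amdhd1 window held no TATA letters and 3 GC boxes (GGGCGG, on the opposite strand, 35.7%), at -32, -12 and -7. The E-box CACGTG (7.15%) and the forkhead letters TGTTTAC (3.65%) were in 0 of the 9 windows, and the cAMP response element core TGACGT (7.51%) was in 1, that of Aass. These are matches of letters and not measured sites.

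Libraries held between 17778395 and 23894812 counts, and the lowest count behind any value of the 9 genes was 1624 (Prodh). Fbp1 stood between 778 and 1050 CPM (each count as a share of the TMM-scaled library total) in WT and between 7.38 and 13.4 CPM in the 5 libraries labelled Fbp1-deleted. Fbp1-deleted replicate 8 lay nearest to WT on the first principal component (6.39, against 35.3 to 54.5 in the other 4 and -46.6 to -18.2 in WT). Hepatocyte markers were present, with 0 of 9 called and a summed level of 74161 to 117650 CPM in WT and 97614 to 113300 CPM in Fbp1-deleted liver. Markers of kidney, another organ that breaks down proline and hydroxyproline, summed to at most 1.25 CPM, with 2 of 6 at 0 in all libraries. In bulk tissue, fewer cells of a type and less RNA per cell cannot be told apart.

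Compared per length of annotated exon, the WT order of levels was Oat, Uroc1, Ftcd, Prodh2, Aldh4a1, Amdhd1, Aass, Hal and Prodh. Oat stood at 308 ± 43.8 CPM per kb (SD, n = 5) and Uroc1 at 165 ± 15.3, and the ranges of these 2 genes overlapped neither each other nor that of Ftcd at 129 ± 13.4. From Ftcd down, each gene's range over the WT livers overlapped that of the next. Hal stood at 58.9 ± 16.7 and Prodh at 39.4 ± 4.27 CPM per kb. In Fbp1-deleted liver Oat, Uroc1, Ftcd and Prodh2 kept the first 4 places, Aldh4a1 stood in place 7 instead of 5, Aass in place 5 instead of 7, and Prodh was last at 14.9 ± 3.64, with a range wholly below that of Hal. Several places depended on the length used. By the longest transcript, Prodh in WT stood at 62.2 CPM per kb, beside Hal at 61.5, and Prodh2 at 157.6 stood above Ftcd at 142, with livers that overlapped those of Uroc1. In Fbp1-deleted liver Prodh2 (134 CPM per kb) likewise stood above Ftcd (118), and Aldh4a1 at 88.7 stood above Amdhd1 at 82.5, which put it in place 6.

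**Figure D1:**
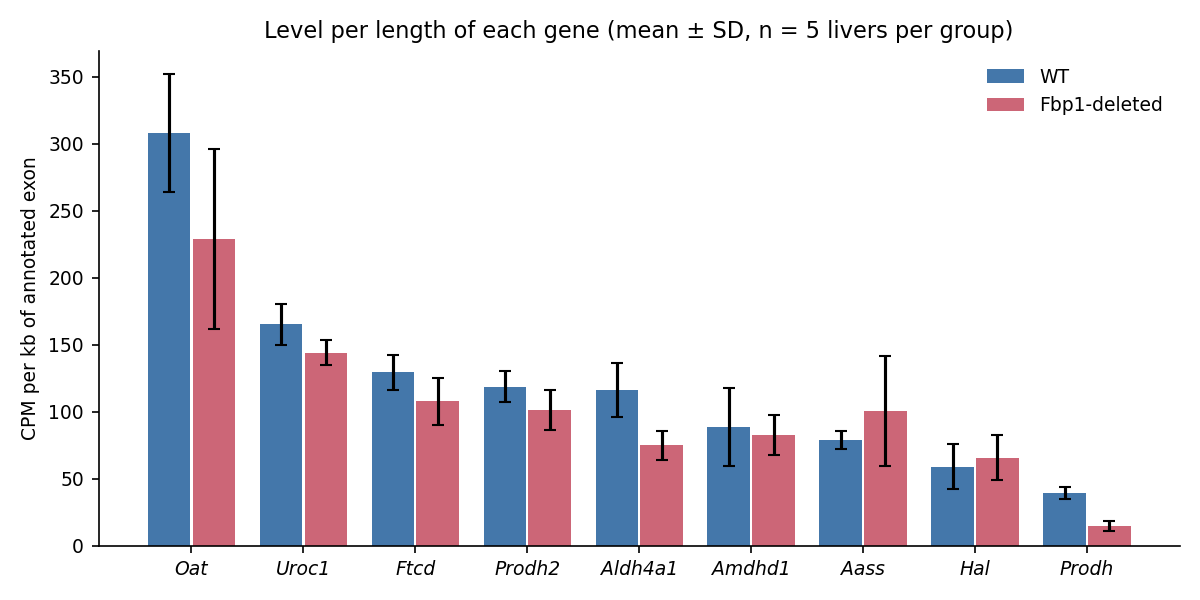
Level per length of the 9 genes. The vertical axis gives CPM per kb of annotated exon, and bars give the mean with SD over 5 livers, WT in blue and Fbp1-deleted in red. Oat was highest and Prodh lowest in both groups, and Prodh stood at 39.4 in WT against 14.9 in Fbp1-deleted liver.

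Of the 9 genes, 2 fell and 0 rose in Fbp1-deleted liver by edgeR's quasi-likelihood test, at a threshold of 0.05 for p adjusted by Benjamini-Hochberg over 15392 genes. Among all genes tested 10% were called lower, 10.6% higher and 20.6% in either direction, so the called share of the 9 genes, 22.2%, was close to the background. The groups did not overlap for 2 of the 9, both lower, beside 13.5% of all genes (6.57% higher and 6.89% lower). The median change of the 9 was -0.23 on the log2 scale, beside 0.01 over all genes tested. Each change that follows is the log2 of Fbp1-deleted over WT. Its standard error (SE) was derived as the size of the change over the square root of edgeR's F statistic.

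**Figure D2:**
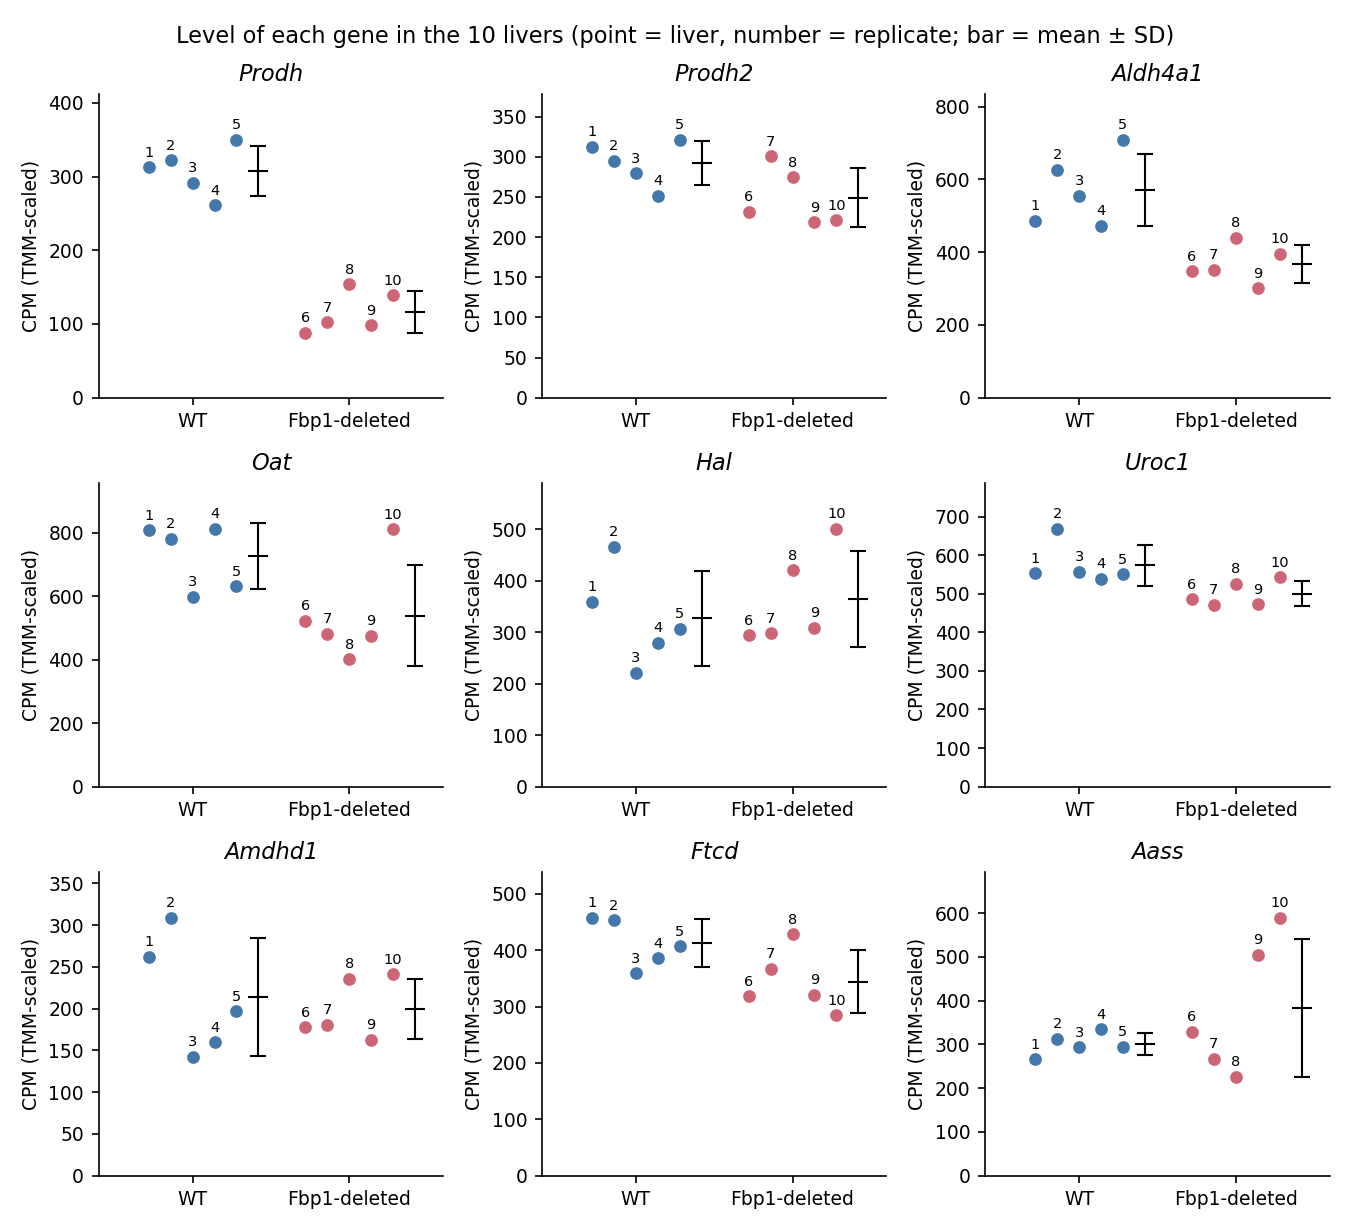
CPM of each gene in each liver. Each point is 1 liver with its replicate number, WT in blue and Fbp1-deleted in red, and the bar beside each group gives the mean and SD of the 5. The groups are apart for Prodh and Aldh4a1 and overlap for the other 7 genes.

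Prodh lies on the minus strand of chromosome 16 (ENSMUSG00000003526.12, chr16:18060357-18090203 in GRCm38). Its level in WT replicates 1 to 5 was 313, 322, 292, 261 and 349.8 CPM. In Fbp1-deleted replicates 6 to 10 it was 88.3, 103, 154, 98.6 and 139 CPM. Every Fbp1-deleted liver was below every WT liver, and replicates 8 and 10 were the highest of the Fbp1-deleted ones. The means were 308 ± 33.3 and 116 ± 28.3 CPM (SD, n = 5 each), so that 37.9% of the WT level was left. The change was -1.40 (SE 0.15, adjusted p = 6.34e-05, edgeR), rank 68 of all genes by p, and it lay between -1.52 and -1.31 whichever library was left out. Replicates 8 and 10 also had the lowest Hspa5 of the Fbp1-deleted livers (512 and 630.0 CPM, against 1873 to 2133 CPM in the other 3). WT livers held between 242 CPM (replicate 1) and 472 CPM (replicate 4) of Hspa5, below every Fbp1-deleted liver. Hspa5 encodes the main chaperone of the endoplasmic reticulum, and its part in the difference was not tested.

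The spans of Prodh and Dgcr6, a gene on the opposite strand, overlap without sharing an annotated exon base. Dgcr6 fell as well, from 51.5 ± 5.13 to 36.9 ± 4.52 CPM (change -0.48, SE 0.11, adjusted p = 0.00766, edgeR). The library does not keep the strand, so reads from unannotated stretches of the pair could not be told apart. Transcripts of Prodh and Prodh2 shared 0 words of 31 bases, and 1.84% of the words of Prodh occurred in transcripts of any other gene.

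Aldh4a1, which completes both the proline and the ornithine route by making glutamate, lies on chromosome 4 (ENSMUSG00000028737.15, chr4:139622866-139649690, plus strand). It was measured at 486, 627, 555, 473 and 709 CPM in WT replicates 1 to 5. The Fbp1-deleted replicates 6 to 10 had 348, 352, 440.2, 301 and 396 CPM. The groups did not overlap, but the highest Fbp1-deleted liver (replicate 8) came close to the lowest WT liver (replicate 4). The means were 569.9 ± 98.8 and 367 ± 52.7 CPM (SD, n = 5 each), a change of -0.63 (SE 0.14, adjusted p = 0.00577, edgeR). Over the fits without 1 library the change lay between -0.71 and -0.55. An overlapping protein-coding gene on the same strand, Gm21969, shares 1595 exon bases with Aldh4a1, and 31% of the 31-base words of Aldh4a1 occur in it. Gm21969 itself was given 0.715 ± 0.327 CPM in WT and 0.676 ± 0.499 CPM in Fbp1-deleted liver, and how reads common to both were divided makes the level of Aldh4a1 uncertain to that extent.

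Prodh2, the hydroxyproline enzyme, did not pass the test. The gene lies at chr7:30493622-30513402 (ENSMUSG00000036892.12, plus strand). The WT livers held 312, 295, 279.7, 252 and 321 CPM and the Fbp1-deleted livers 232, 300.4, 274, 218 and 221 CPM. 3 of the Fbp1-deleted livers (replicates 6, 9 and 10) were below every WT liver, and replicates 7 and 8 lay inside the WT range. The change was -0.23 (SE 0.12, 95% interval -0.48 to 0.02, adjusted p = 0.177, edgeR).

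The balance of Prodh to Prodh2 within each liver, which does not depend on how libraries are scaled, moved with genotype. The log2 ratio of their counts was 0.07 ± 0.05 in WT (SD, n = 5), with livers between 0.0023 and 0.13, and -1.12 ± 0.37 in Fbp1-deleted liver, with livers between -1.55 and -0.67. The WT livers were nearly alike and the Fbp1-deleted livers were spread out below them. The difference was -1.19 (two-sided exact permutation test, p = 0.00794, the smallest that 5 against 5 can give, 0.0278 adjusted over 7 ratios). For Prodh to Aldh4a1, the log2 ratio was -0.88 ± 0.15 in WT and -1.68 ± 0.20 in Fbp1-deleted liver (SD, n = 5 each). The group means differed by -0.80 (exact permutation p = 0.00794, adjusted 0.0278), and all Fbp1-deleted livers were below all WT livers. Prodh fell by more than the gene of the next enzyme of its route. These 2 ratios share Prodh and are not separate evidence.

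**Figure D3:**
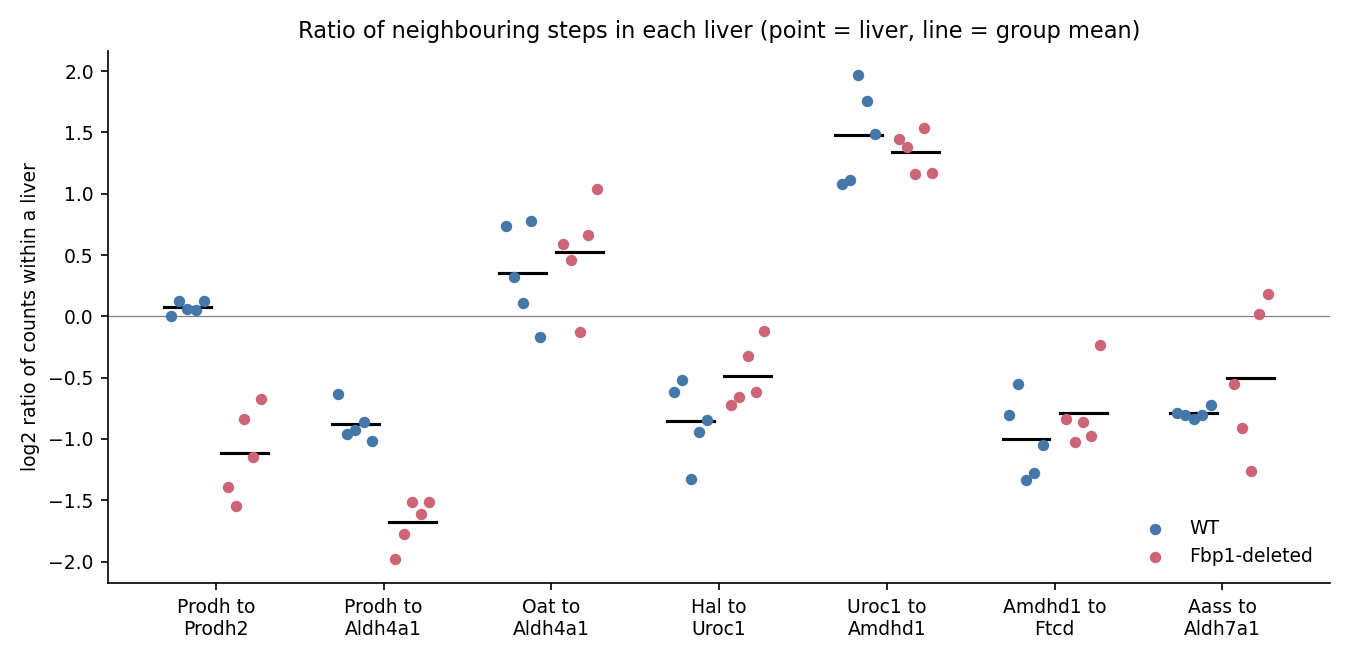
Log2 ratio of the counts of 7 pairs of neighbouring or matching enzymes. Each point is 1 liver and each line the mean of a group, WT in blue and Fbp1-deleted in red. The groups are apart for Prodh to Prodh2 (means 0.07 and -1.12) and for Prodh to Aldh4a1 (-0.88 and -1.68), and overlap for the other 5 pairs.

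Oat lies on the minus strand of chromosome 7 (ENSMUSG00000030934.9, chr7:132557478-132576398), inside the span of Fgfr2 without shared exon bases. It stood at 809, 782, 599, 813 and 631 CPM in WT replicates 1 to 5. Fbp1-deleted replicates 6 to 9 held 523.5, 482, 402 and 476 CPM, all below the lowest WT liver, while replicate 10 held 812 CPM, at the top of the WT range. The means were 727 ± 103 and 539 ± 159 CPM (SD, n = 5 each). The change was -0.43 (SE 0.17, 95% interval -0.80 to -0.06) and was not called (adjusted p = 0.093, edgeR). Without Fbp1-deleted replicate 10 it was -0.63 and passed (adjusted p = 0.00636). The ratio of Oat to Aldh4a1 overlapped between the groups, with a log2 mean of 0.36 ± 0.41 in WT and 0.52 ± 0.42 in Fbp1-deleted liver (exact permutation p = 0.532, n = 5 each).

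No gene of the histidine route was called, whether at its entry, its middle or its end. Hal, which removes ammonia from histidine, lies at chr10:93488768-93519304 (ENSMUSG00000020017.14, plus strand). Its WT livers held 360, 467, 222, 279.9 and 307 CPM. The Fbp1-deleted livers held 294, 299, 421, 309 and 501 CPM. The ranges overlapped over most of their length, the means were 327 ± 92.5 and 365 ± 92.5 CPM (SD, n = 5 each), and the change was 0.16 (SE 0.21, 95% interval -0.29 to 0.60, adjusted p = 0.628, edgeR).

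Uroc1 (ENSMUSG00000034456.15, chr6:90333284-90364551, plus strand) was the steadiest of the 9 among Fbp1-deleted livers, with a coefficient of variation of 6.53%. It stood at 553, 668, 557, 539 and 551 CPM in WT and at 486, 471, 526, 473 and 543 CPM in Fbp1-deleted livers. 4 of the 5 Fbp1-deleted livers were below every WT liver, and replicate 10 was above WT replicate 4. The change was -0.20 (SE 0.10, 95% interval -0.41 to 0.01, adjusted p = 0.165, edgeR). Ftcd (ENSMUSG00000001155.13, chr10:76575648-76590338, plus strand) gave 457, 454, 359, 386 and 407 CPM in WT against 318, 367, 428, 321 and 285 CPM. Replicates 7 and 8 of the Fbp1-deleted livers lay inside the WT range. Its change of -0.26 (SE 0.12, 95% interval -0.524 to -0.0013, adjusted p = 0.142, edgeR) passed without Fbp1-deleted replicate 8 (-0.35, adjusted p = 0.0368).

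Amdhd1 lies tail to tail with Hal (ENSMUSG00000015890.2, chr10:93523338-93540033, minus strand), with 4033 bases between the ends of the genes and 0 shared 31-base words. It held 262, 309, 142, 159 and 197 CPM in WT and 178, 181, 236, 163 and 241 CPM in Fbp1-deleted livers. The change was -0.10 (SE 0.21, 95% interval -0.55 to 0.35, adjusted p = 0.771, edgeR), and it was 0.07 without WT replicate 2. The livers high in Amdhd1 were those high in Hal: WT replicates 1 and 2 and Fbp1-deleted replicates 8 and 10 held the 4 highest values of both genes, and WT replicates 3 and 4 the 2 lowest of both. Across the 10 livers Hal varied 2.26-fold and Amdhd1 2.17-fold, and the ratio of Hal to Amdhd1 counts lay between 1.37 and 2.07. That ratio ran from 1.37 to 1.76 in WT and from 1.65 to 2.07 in Fbp1-deleted liver. These patterns were noticed after the values were seen and carry no test.

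**Figure D4:**
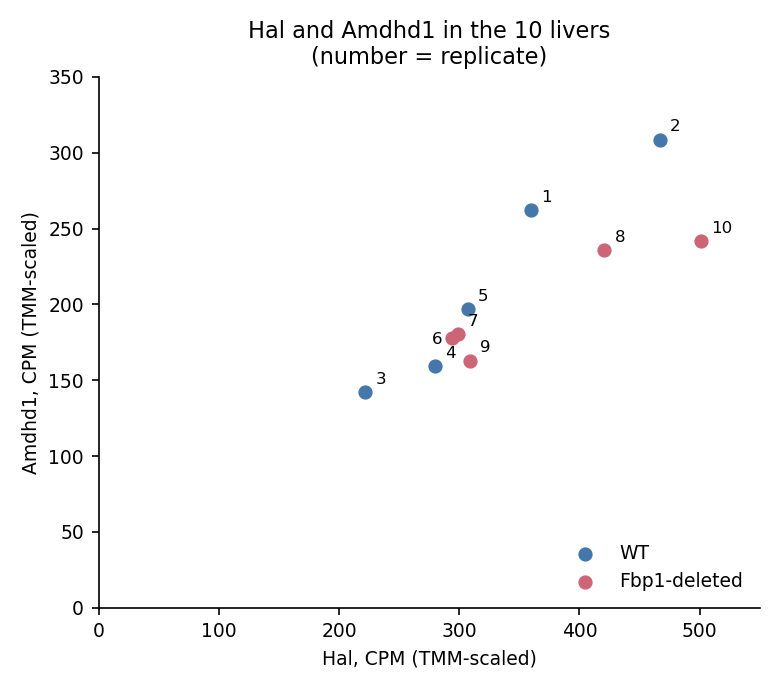
Hal against Amdhd1 in the 10 livers. Both axes give CPM from 0, each point is 1 liver with its replicate number, WT in blue and Fbp1-deleted in red. WT replicates 1 and 2 and Fbp1-deleted replicates 8 and 10 lie at the upper right, and WT replicate 3 is lowest for both genes.

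Ratios between successive histidine enzymes overlapped between the groups. For Hal to Uroc1 the log2 mean was -0.85 ± 0.32 in WT and -0.49 ± 0.26 in Fbp1-deleted liver (SD, n = 5 each, exact permutation p = 0.0873, adjusted 0.204). For Uroc1 to Amdhd1 the exact permutation p was 0.5, and for Amdhd1 to Ftcd it was 0.325. Differences of these pairs were -0.14 and 0.22 on the log2 scale.

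Aass, the entry to lysine degradation (ENSMUSG00000029695.13, chr6:23072173-23132986, minus strand), was even among WT livers and uneven among Fbp1-deleted ones. WT replicates 1 to 5 held 266, 313, 294, 335 and 295 CPM, a coefficient of variation of 8.5%. Fbp1-deleted replicates 6 to 10 held 329, 267, 226, 505 and 589 CPM, a coefficient of variation of 40.9%. Replicates 9 and 10 were above every WT liver, replicate 8 was below every one, and replicates 6 and 7 lay inside the WT range. The means were 301 ± 25.6 and 383 ± 157 CPM (SD, n = 5 each). The change of 0.35 (SE 0.23, 95% interval -0.16 to 0.86) was not called (adjusted p = 0.322, edgeR). It was 0.13 without replicate 10 and 0.49 without replicate 8, neither of them called. The ratio of Aass to Aldh7a1, the next lysine enzyme, ran from -0.84 to -0.72 in WT and from -1.26 to 0.19 in Fbp1-deleted liver on the log2 scale (exact permutation p = 0.325 for the difference of means, n = 5 each). Whether the spread itself differed was not tested.

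Around the 9 genes, the other genes of these routes changed here and there. Among other steps of proline and hydroxyproline metabolism 1 of 8 tested genes rose and 0 fell, with a median of -0.22. It was Got1, the cytosolic aspartate aminotransferase, from 416 ± 143 to 1266 ± 383 CPM (change 1.60, SE 0.27, adjusted p = 0.00226, edgeR). Got2, its mitochondrial partner and the most abundant uncalled gene of the list, gave -0.17 (SE 0.10). For ornithine 2 of 7 rose and 1 fell (median 0.06). The carrier that brings ornithine into mitochondria, Slc25a15, rose by 1.20 (SE 0.18), and the arginase gene Arg1 by 0.42 (SE 0.11), while Odc1, which draws ornithine into polyamines, fell by 0.34 (SE 0.09) on the log2 scale. The call of Arg1 was lost with library totals (adjusted p = 0.0718), with upper quartile factors (0.0634) and without Fbp1-deleted replicate 9 (0.055). Oaz1, which encodes the antizyme that curbs the Odc1 enzyme, gave 0.02 (SE 0.11).

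In a list that joins folate one-carbon genes with genes of histamine and carnosine metabolism, 1 of 15 rose and 1 fell (median -0.19). Shmt1, the cytosolic serine hydroxymethyltransferase, fell from 249.9 ± 25.4 to 154 ± 26.9 CPM (change -0.70, SE 0.13, adjusted p = 0.00202, edgeR). Mthfd1l of the mitochondrial folate route rose by 0.999 (SE 0.31) on the log2 scale, from only 2.35 ± 1.37 CPM. The call of Mthfd1l was lost when any of 8 of the 10 libraries was left out (adjusted p up to 0.0858). Aldh1l1, a cytosolic folate enzyme and the most abundant of the list, gave -0.31 (SE 0.13, adjusted p = 0.0966, edgeR).

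Of 16 other lysine and carnitine-route genes 2 rose and 3 fell (median -0.07). Dlst and Dld, each a subunit of more than 1 oxoacid dehydrogenase complex, rose by 0.55 (SE 0.09) and 0.43 (SE 0.09). Pipox, which oxidises pipecolate in peroxisomes, fell from 306 ± 29.3 to 210.2 ± 31.3 CPM (change -0.54, SE 0.12, adjusted p = 0.00587, edgeR). Aldh9a1 of carnitine synthesis and Echs1, an enoyl-CoA hydratase, fell by 0.44 (SE 0.10) and 0.37 (SE 0.11) on the log2 scale, and the call of Echs1 was lost without any of 6 libraries (adjusted p up to 0.0839). Gcdh, the glutaryl-CoA dehydrogenase and the most abundant uncalled gene of the list, was at 625 ± 33.8 CPM in WT and 546 ± 27.0 CPM in Fbp1-deleted liver (SD, n = 5 each). Every Fbp1-deleted liver was below every WT liver for Gcdh, with a change of -0.20 (SE 0.09, adjusted p = 0.133, edgeR). Aldh7a1, set against Aass in the ratio, was at 521 ± 50.1 and 509 ± 22.5 CPM.

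Glutamate, the shared product, is handled by 10 genes of which 1 rose and 0 fell (median 0.05). That 1 was Slc25a22, a mitochondrial glutamate carrier, at 244 ± 51.4 CPM in WT and 909.9 ± 236 CPM in Fbp1-deleted liver (change 1.90, SE 0.20, adjusted p = 7.01e-05, edgeR). Glul, glutamine synthetase, gave -0.01 (SE 0.13). Among 10 tested transporters 1 rose and 2 fell (median 0.12). Slc36a1, a proton-coupled carrier of proline and other small amino acids, fell from 32.7 ± 6.77 to 16.2 ± 3.46 CPM (change -1.02, SE 0.16, adjusted p = 0.00102, edgeR). Slc38a3, which carries glutamine and histidine, fell by 0.41 (SE 0.13) and Slc16a10, a carrier of aromatic amino acids, rose by 0.73 (SE 0.20). Their calls were lost without any of 7 and of 3 libraries (adjusted p up to 0.107 and 0.0564). Slc38a4, the most abundant uncalled carrier, gave 0.07 (SE 0.11).

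**Figure D5:**
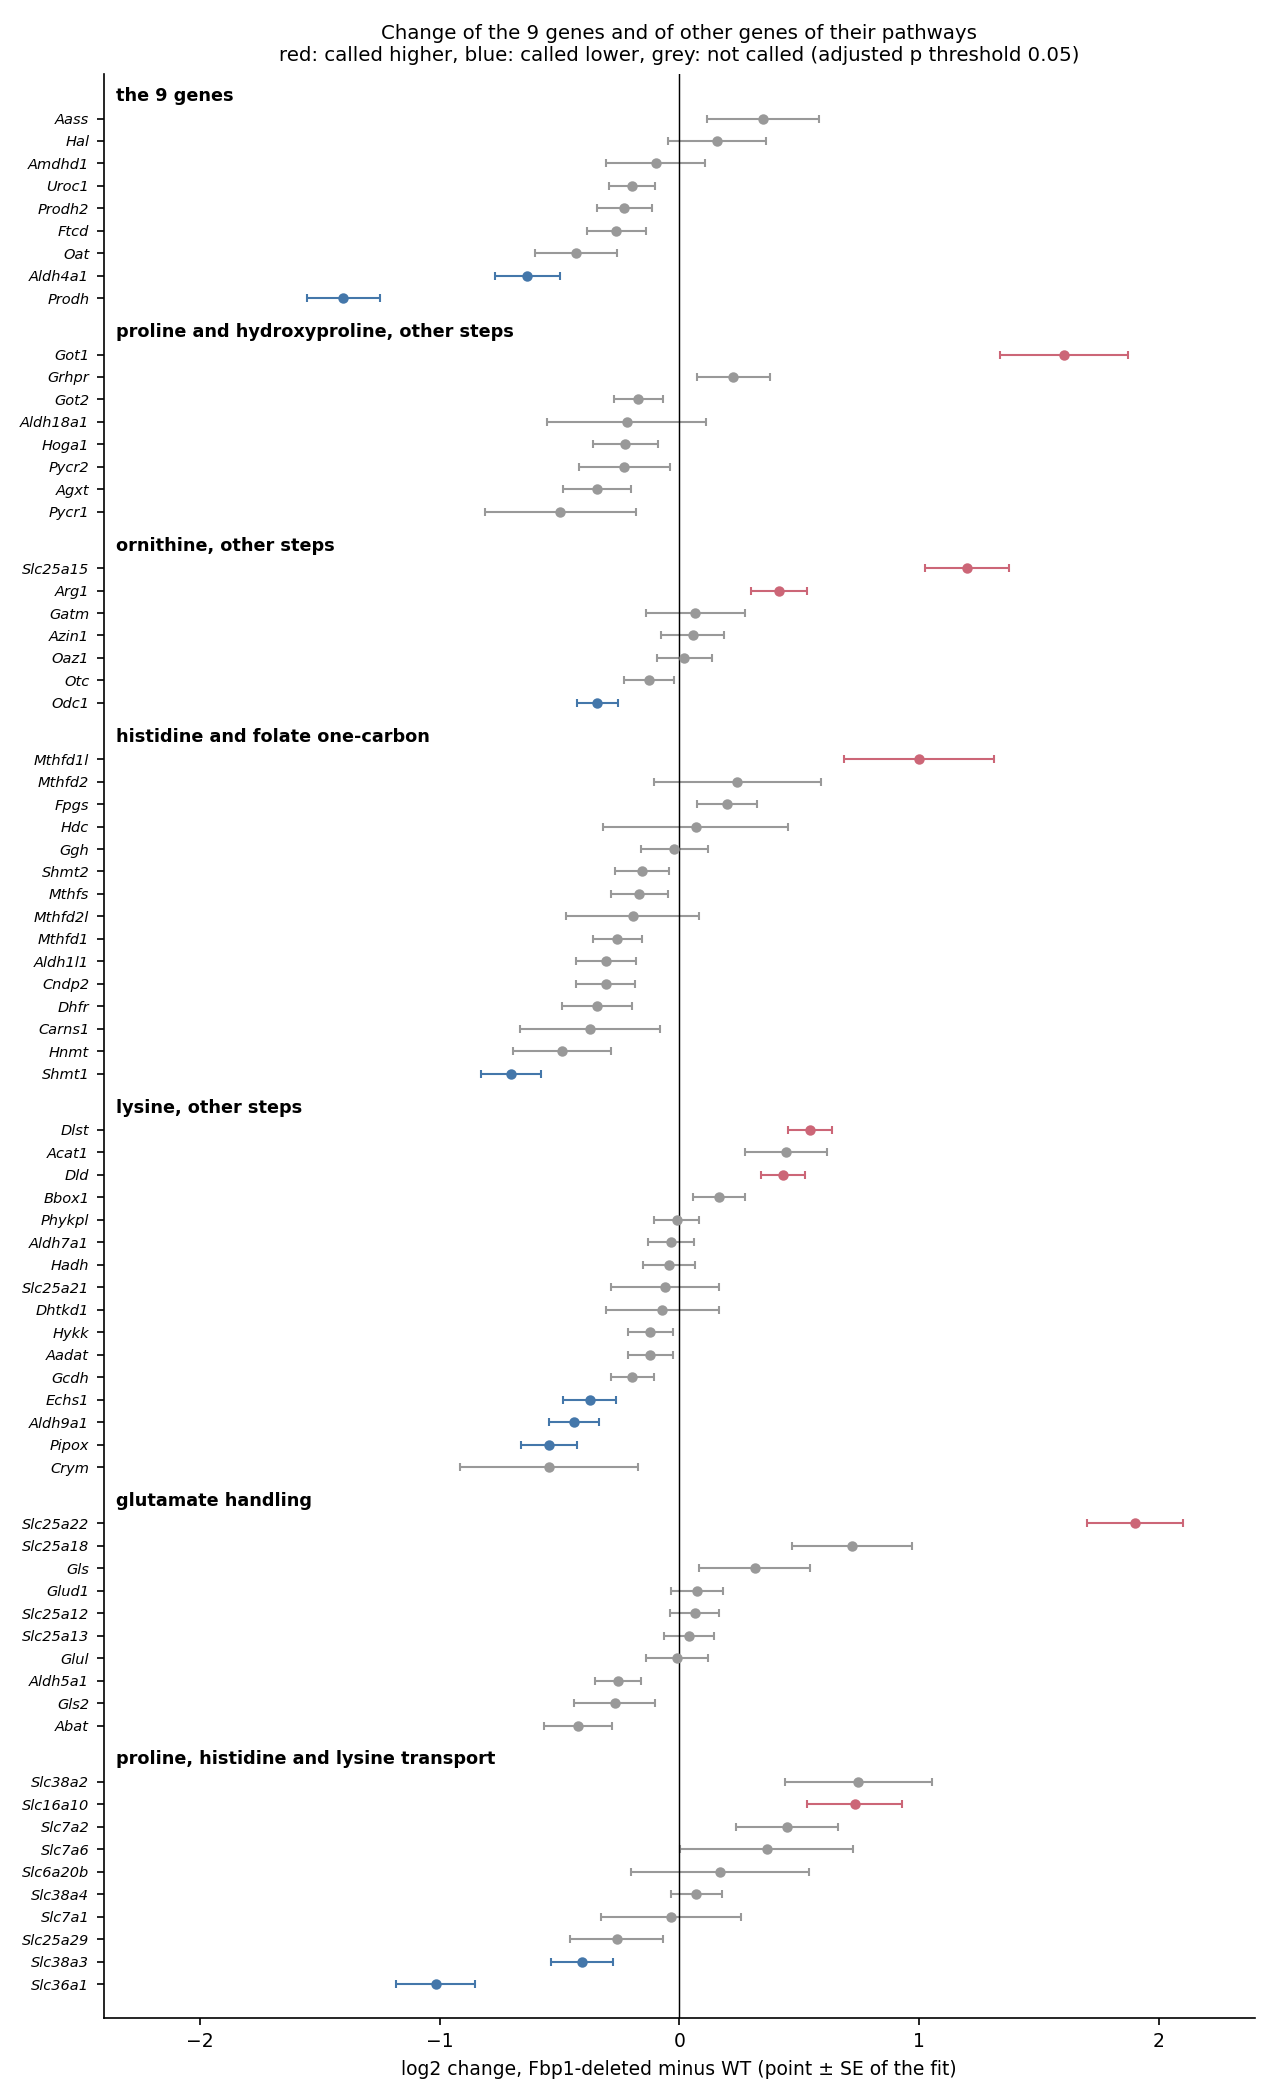
Log2 of Fbp1-deleted over WT, with its SE, for the 9 genes and the tested genes of 6 related lists. Red points were called higher, blue points lower and grey points neither at an adjusted p threshold of 0.05. Prodh (-1.40) is the lowest point, and Slc25a22 (1.90) and Got1 (1.60) are the highest.

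Markers of other cells and of lobular zones moved in the same livers. Of 15 pericentral markers 6 fell, 0 rose and 9 were not called, Glul among the last. The summed level of the 15 was 10623 to 13182 CPM in WT and 7164 to 8326 CPM in Fbp1-deleted liver, without overlap. Most of this sum was Cyp2e1 (means 6126 and 4392 CPM) and Cyp2a5 (2172 and 604 CPM), both called lower. Of 12 periportal markers 5 rose and 1 fell, with sums of 46386 to 88039 and 82414 to 90873 CPM. Most of these sums was Alb, also a hepatocyte marker and not called, at 56504 ± 15155 CPM in WT and 63690 ± 3112 CPM in Fbp1-deleted liver. The periportal sums therefore say little about the other markers of the list. Among Kupffer cell markers 4 of 7 fell, with sums of 223 to 311 and 163 to 246 CPM and no marker at 0. Lymphocyte markers (2 of 6 lower) summed to 5.25 to 11.5 and 3.68 to 6.11 CPM, cholangiocyte markers (1 of 6 lower) to 26.4 to 39.3 and 17.6 to 27.7 CPM, and sinusoidal endothelial markers (1 of 7 higher) to 223 to 272 and 159.6 to 269.7 CPM. Stellate cell markers (1 of 8 higher) summed to 389.7 to 502 and 516 to 540.5 CPM, without overlap. Neutrophil (2 tested) and erythroid (5 tested) markers had 0 calls. The part of zonation or of these cells in the falls of Prodh and Aldh4a1 was not tested.

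The genes whose levels over the 10 livers, each centred on its own mean, lay closest to those of Prodh were Adh1, Adra1b and Clcn2, at root mean square differences of 0.12, 0.12 and 0.16 on the log2 scale, where the median gene among 8421 stood at 0.80. For Aldh4a1 the closest were Tapbp, Bcar3 and Dgat2, at 0.08, 0.08 and 0.09, where the median was 0.44. All 6 were called lower. The measure takes in the step between the groups as well as the livers within each, so these calls follow largely from the choice.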

How the data were processed

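RNA of 10 livers was sequenced from libraries that do not keep the strand, per the labels' protocols. What the authors deposited are estimated counts, 1 value per gene and liver, all of them whole numbers. The submitters' processing notes name Salmon and GRCm38 without versions. The series' design text also describes STAR with featureCounts, and whether the deposited counts were adjusted for transcript length is not given in the sources used here. Where Salmon was used, reads common to several transcripts are shared out by a model, and replicates do not show that error.

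Identifiers were matched to GENCODE M21 (37 of 53392 did not match). Tests used edgeR 4.0.16 (R 4.3.3) with filterByExpr, TMM factors, a robust quasi-likelihood F test of Fbp1-deleted against WT without covariates, and Benjamini-Hochberg adjustment over 15392 genes. Groups came from the sample titles, and replicate numbers are not shared between groups. The livers are biological replicates per the series' design text, and any 2 of a group differed by a chi-square of at least 14.2 per degree of freedom, above counting noise. CPM uses TMM-scaled library totals. Levels per kb use the union of annotated exons. Ratios were log2 of counts plus 0.5 and were tested by exact permutation over livers. Intervals of 95% were derived from the change, its SE and the t distribution with the degrees of freedom of the edgeR fit.

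The script was first tested on simulated counts with known changes. It called 38.3% of 1.5-fold, 60% of 2-fold, 86% of 3-fold and 91.8% of 4-fold changes, and 7.48% of its calls were false. Alternatives were RLE, upper quartile or no scaling factors, other filters, DESeq2 1.42.0, limma-voom (limma 3.58.1), no robust shrinkage, a threshold of 0.01 and each library left out.

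The members, lists and tests were chosen with earlier results of these data known. All 9 genes are named, with the called genes and the most abundant uncalled gene of each related list (Pycr3 and Tmlhe matched no symbol, and 1 gene of the folate list is not reported here). Marker lists covered zones, liver cells and other tissues, and pancreas and muscle markers summed to at most 14.4 and 2.00 CPM with 1 member each at 0. Pancreas had 1 gene tested, which was lower, muscle 1, which was not called, and kidney 1, also not called. For genes of like pattern the 3 closest protein-coding genes with a mean log2 CPM of at least 3 are given. Dgcr6, Gm21969 and Hspa5 were chosen after their values were seen, as were the CCAAT and GC box motifs. Promoter sequences are those of RefSeq, with 9 of 9 genes matched, read in Python 3.11.15.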

Additional observations from a re-analysis of the deposited data

Results flagged for a closer look

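In 2 of 32 groups of 5 values 1 liver stood far from the rest of its group, measured by its gap to the nearest other liver over the whole range of the group. Chance flags about 1 in 20 groups. Uroc1 in WT replicate 2 stood at 668 CPM, while the other 4 WT livers held 539 to 557 CPM. The log2 ratio of Amdhd1 to Ftcd in Fbp1-deleted replicate 10 was -0.24, while the other 4 Fbp1-deleted livers lay between -1.02 and -0.84.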

How the results depend on the processing

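No paired analysis was possible because the groups share no replicate numbers. Prodh and Aldh4a1 stayed lower and called under all 19 alternatives, with changes of -1.52 to -1.31 and -0.72 to -0.55, and 0 of the 9 genes was called higher under any. Among the 9 genes 2 were called lower in each fit, except that 3 were without Fbp1-deleted replicate 8 (with Ftcd) and without Fbp1-deleted replicate 10 (with Oat). With 1 library left out the change of Amdhd1 ran from -0.214 to 0.0703 and turned its sign without WT replicate 2, uncalled throughout. Over all genes the number called was 3178, 1311 at a threshold of 0.01, and between 2105 and 3918 with 1 library left out. Genes called higher were 51.5% of calls with TMM factors, 40.3% with upper quartile factors and 37.7% with library totals, and the median change of all genes shifted from 0.01 to -0.06 and -0.08. No ratio changed its call with a pseudocount of 5 or with any library left out. The lowest count behind a value of the 9 genes was 1624. The 95% intervals of Oat and Aass reach -0.80 and 0.86, so the lack of a call shows no lack of change.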
